A study of Mus musculus with 2 samples.

Results

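The 80 genes described here encode the proteins of the cytosolic ribosome and 4 close relatives with restricted or inducible expression, read in the heart of 10-day-old mice. They were chosen by symbol from 55536 annotated genes: an Rpl or Rps name followed by a number, with or without the endings that mark paralogs, or Rpsa, Rplp0, Rplp1 and Rplp2, with at least 1 transcript annotated as protein coding. The rule itself uses no measured value, although it was set with earlier results of these data known. The large subunit has 49 of the genes and the small subunit has 31. The relatives are Rpl3l, Rpl10l, Rpl39l and Rps27l, and the other 76 genes are also described without them.

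The tissue came from 2 female mice of B6CASTF1/J, the first-generation hybrid of C57BL/6J with CAST/EiJ, a strain derived from wild mice. All samples belong to 1 group, heart tissue at an age of 10 days with no treatment or genetic change named in the labels, and each animal gave 1 total RNA library, replicates 1 and 2, from 300 ng of RNA with synthetic ERCC spike-in RNAs added. The labels place both animals as biological replicates under a single donor record, and they name no litter, date or batch. Replicate 1 held 40403041 expected counts and replicate 2 39849597. The study therefore holds no contrast between conditions, and genes are compared with each other inside a heart, and 1 heart with the other.

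A ribosome is built from a small subunit, which reads the mRNA, and a large subunit, which joins amino acids, and each is made of ribosomal RNA with 1 copy of most proteins. Most of the proteins are needed in equal numbers, and their mRNAs share features of control. They start with a stretch of pyrimidine bases, the 5′ terminal oligopyrimidine or TOP element, which lets the kinase mTOR and the RNA-binding protein Larp1 switch their translation on and off with growth. Heart and skeletal muscle of mice and humans also use Rpl3l, a muscle-specific relative of Rpl3, while Rpl10l and Rpl39l are known from male germ cells and Rps27l as a target of the tumour suppressor p53. Ribosomal protein genes have left many processed pseudogenes in mammalian genomes, which resemble the mRNA of their source gene and can take up its reads.

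The sequences below show how far reads can tell Rpl3l from Rpl3 and Rps27l from Rps27. They are the first 60 coding bases of the leading coding transcript of each gene, from GENCODE M21 on mm10, and capitals mark the bases that differ within a pair.
Rpl3l: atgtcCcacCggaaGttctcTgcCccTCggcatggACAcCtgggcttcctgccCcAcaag
Rpl3: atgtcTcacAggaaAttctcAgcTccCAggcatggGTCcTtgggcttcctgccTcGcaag
Rps27l: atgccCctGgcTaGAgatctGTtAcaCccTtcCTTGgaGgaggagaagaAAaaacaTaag
Rps27: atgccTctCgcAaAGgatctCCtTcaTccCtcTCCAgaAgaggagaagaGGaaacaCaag
The first pair differs at 13 of these bases and the second at 18. Over the whole aligned coding sequence Rpl3l and Rpl3 were 74.8% identical and Rps27l and Rps27 76.2%. Their longest identical runs were 22 and 11 bases, and neither pair shared any 31-base word. Rpl10l and Rpl10 (84.7%) shared no such word and Rpl39l and Rpl39 (84.97%) shared 8.

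Ribosomal protein mRNAs made up a small share of reads and a larger share of the abundance corrected for length. They held 0.883% of all counts in replicate 1 (exact 95% binomial interval 0.880 to 0.886%) and 0.872% in replicate 2 (0.869 to 0.875%), or 0.878 ± 0.00805% (SD, n = 2). Each interval was computed within 1 library and covers counting error only. Amplified reads are not independent molecules, so the intervals can be too narrow even for that error. Of TPM, the abundance of a transcript per length relative to all entries of the library, they held 2.12% in replicate 1 and 2.10% in replicate 2, and of the TPM of nuclear protein-coding genes alone 5.11% and 4.86%. The median length of the 76 genes was 613 nt in replicate 1 and 614 nt in replicate 2, against 2441 and 2450 nt for detected protein-coding genes. Levels are relative, so fewer cells of a type and less RNA per cell cannot be told apart in this bulk tissue.

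Of the 80 genes, 78 reached 1 TPM in both libraries. Over all annotated genes that share was 23.1%, and over protein-coding genes it was 53.3%. All 78 also reached 10 TPM in both libraries. The other 2 were the male germ cell relatives: Rpl10l (chromosome 12) had 0 counts in both libraries, and Rpl39l (chromosome 16) had 1 count in replicate 1 and 0 in replicate 2. The gap around the detection level was wide, since the lowest detected gene, Rpl5, stood at 21.94 and 19.27 TPM. The median over the 80 genes was 273 TPM in replicate 1 and 261 TPM in replicate 2, against 10.9 TPM in each library for detected nuclear protein-coding genes. Among 22028 protein-coding genes, 65 of the 80 were within the 500 most abundant in replicate 1 and 66 in replicate 2.

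**Figure D1:**
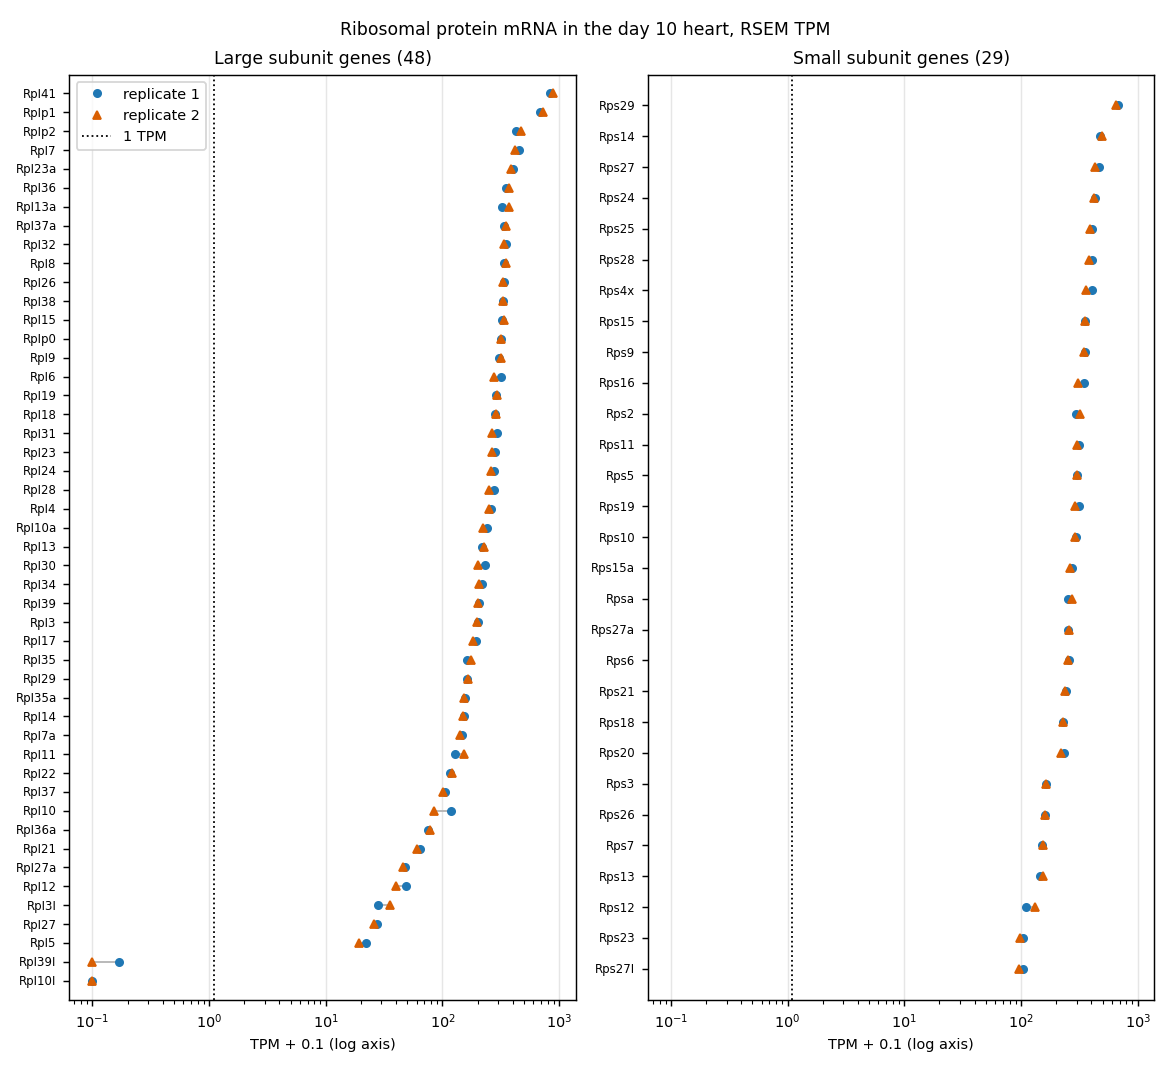
TPM + 0.1 of 77 of the 80 genes (log axis), large subunit left and small subunit right, ordered by mean, with circles for replicate 1, triangles for replicate 2 and a dotted line at 1 TPM. All but Rpl39l and Rpl10l lie above 19 TPM, and for most genes the circle and the triangle overlap.

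The levels within a subunit were not equal, although a ribosome holds most of the proteins in equal numbers. Leaving out the 4 relatives, the median was 259 ± 11.8 TPM for 46 large-subunit genes and 298 ± 1.32 TPM for 30 small-subunit genes (SD, n = 2). The log2 ratio of these medians, large over small, was −0.21 ± 0.06, and by the second quantification (kallisto, described further on) it was −0.04. In both libraries 49 of the 76 genes lay between 200 and 500 TPM, and the 90th percentile was 3.99 times the 10th in replicate 1 and 4.23 times in replicate 2. The order of genes was nearly the same in the 2 hearts, with a Spearman rho of 0.991 over the 80 genes, which share the 2 libraries. The order depends on the quantification: between RSEM and kallisto TPM rho was 0.689 in replicate 1 and 0.669 in replicate 2.

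The highest level of the large subunit was that of Rpl41 (chr10:128548114-128549305, minus strand), a peptide of the bridge between the subunits and the smallest ribosomal protein. It stood at 832 TPM in replicate 1 and 883 in replicate 2. Next came the acidic stalk proteins, which recruit the translation factors. Rplp1 stood at 692 and 731 TPM and Rplp2 at 429 and 470 TPM in replicates 1 and 2. Rplp0, the base on which the stalk pairs sit, had 319.9 and 318.1 TPM. A ribosome carries more copies of Rplp1 and Rplp2 than of Rplp0, and both mRNAs lay above that of Rplp0 in both libraries. By kallisto that order did not hold: Rplp1 averaged 584 ± 36.4, Rplp2 604 ± 51.7 and Rplp0 643 ± 0.363 TPM (SD, n = 2). Rpl7, at 455 and 418 TPM, was also among the 8 highest genes.

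The genes for proteins of the catalytic centre and the exit tunnel had unequal levels. Rpl3, which reaches the peptidyl transferase centre, stood at 199.96 and 198.85 TPM. Rpl4, which lines the exit tunnel, averaged 256 ± 6.46 TPM, and Rpl39, another tunnel protein, averaged 203 ± 4.26 TPM. Rpl23a and Rpl35, at the tunnel exit where chaperones and the signal recognition particle dock, averaged 394 ± 9.84 and 169 ± 7.40 TPM. Rpl38, needed in mice for the translation of Hox mRNAs, averaged 331 ± 1.57 TPM. Rpl10, which is loaded last in the cytoplasm, stood at 118 (replicate 1) and 84.3 TPM (replicate 2), the widest gap between the hearts of any detected gene of the set on the log2 scale.

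The partners of the 5S ribosomal RNA were given unequal levels by both quantifications, but the level of Rpl5 depends on a pseudogene. Rpl5 and Rpl11 form a particle with 5S RNA that also binds the p53 regulator Mdm2. Rpl5 stood at 21.94 and 19.27 TPM, and Rpl11 at 128 and 154 TPM. By kallisto the gap was narrower, at 155 ± 7.94 TPM for Rpl5 and 398 ± 15.4 TPM for Rpl11 (SD, n = 2). The transcribed pseudogene Gm15500, which shares sequence with Rpl5, took more counts than Rpl5 by both methods. It was given 7897 and 7207 counts by RSEM and 5905 and 5558 by kallisto in replicates 1 and 2. Rpl5 itself was given 1135 and 1012 counts by RSEM and 3025 and 2793 by kallisto. The gap between the Rpl5 and Rpl11 mRNAs is therefore not settled by these values. The remaining low large-subunit genes were Rpl27 (27.55 and 25.72 TPM), Rpl12 (48.7 and 40.2 TPM), Rpl27a (47.5 and 45.4 TPM) and Rpl21 (64.0 and 60.2 TPM). These 4 genes and Rpl5 were each more than 2-fold higher by kallisto counts.

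In the small subunit the highest level was that of Rps29, a zinc-binding protein near the mRNA channel, at 679 TPM in replicate 1 and 658 in replicate 2. Rps14, whose loss in humans underlies the 5q- syndrome, followed at 479 and 492 TPM, and Rps27 at 466 and 432 TPM. The genes mutated in human Diamond-Blackfan anaemia included Rps24 at 428 ± 2.50, Rps19 at 300.5 ± 18.1, Rps26 at 160 ± 1.46 and Rps7 at 154 ± 2.03 TPM (SD, n = 2). Rps6, the substrate of the S6 kinases, averaged 255 ± 3.85 TPM, and Rpsa, also known as the laminin receptor precursor, 264 ± 17.2 TPM. Rps3, at the mRNA entry, averaged 165 ± 0.170 TPM. The lowest small-subunit gene outside the 4 relatives by RSEM was Rps23, a protein of the decoding centre, at 103 and 98.6 TPM. Relative to the library total, its RSEM counts were 0.244 times those by kallisto. Its pseudogene Rps23-ps1 was given 3889 and 3765 counts by RSEM and 0 after rounding by kallisto. The place of Rps23 as the lowest therefore rests on RSEM. X-linked Rps4x averaged 384 ± 31.8 TPM, and Rps27a, made as a ubiquitin fusion, had 254 and 256 TPM.

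Ribosomal genes whose symbols fall outside the choice had levels within the same range. Rack1, a scaffold protein on the head of the small subunit, stood at 227 and 216 TPM. Fau, a ubiquitin-like fusion that releases Rps30, had 298 and 316 TPM. Rps3a1 had 269 and 258 TPM.

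The muscle paralog Rpl3l was a minority beside Rpl3 at this age. Rpl3l (chr17:24727820-24736143, plus strand) stood at 28.15 (replicate 1) and 35.73 TPM (replicate 2), and Rpl3 (chr15:80077791-80091868, minus strand) at 199.96 and 198.85 TPM. The log2 ratio of Rpl3l to Rpl3 was −2.82 in replicate 1 and −2.47 in replicate 2, with a mean of −2.65 ± 0.25, so Rpl3l was 6.27-fold lower. A pair is read as apart where both libraries have the same sign and the mean exceeds 3 SD, which held here, since 2 libraries allow no exact p under 0.5. Rpl3l supplied 12.3% of the pair's TPM in replicate 1 and 15.2% in replicate 2. By kallisto these shares were 10.2% and 14.8%, with a log2 ratio of −2.83 ± 0.43.

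Reads of Rpl3l can be told from those of other genes. Its coding transcripts shared no 31-base word with any other annotated gene, and it was the only one of the 80 for which this held. Its 1121 and 1381 counts carried a deposited posterior SD of 0. The leading transcript Rpl3l-202 held 98.7% of the gene's TPM in replicate 1 and 94.99% in replicate 2 by RSEM. The Rpl3 side is less certain, since the pseudogene Rpl3-ps1 shares 1118 words with Rpl3 and was given 4934 and 4514 counts by RSEM. Of 7 markers of skeletal muscle, another tissue that uses Rpl3l, none reached 1 TPM in both libraries, and they summed to 2.59 and 3.19 TPM. The 5 heart muscle markers Myh6, Myl2, Actc1, Tnnt2 and Ryr2 summed to 27017 and 28417 TPM.

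Rps27l lay closer to its partner, and the germ cell relatives lay at or near 0. Rps27l stood at 104 (replicate 1) and 97.0 TPM (replicate 2), against 466 and 432 TPM for Rps27. By RSEM the log2 ratio of −2.16 ± 0.004, or 4.46-fold lower, was almost identical in the 2 hearts, and Rps27l held 18.3% of the pair in each. By kallisto the log2 ratio was −1.81 ± 0.08, with shares of 22.9% in replicate 1 and 21.5% in replicate 2. With a floor of 3 counts per library, Rpl10l was at least 1134-fold lower than Rpl10 in replicate 1 and at least 797-fold lower in replicate 2. Rpl39l had 1 and 0 counts, beside 206 and 199.5 TPM for Rpl39, and no fold is given. Of 7 markers of male germ cells, the cells in which both are best known, none was detected and 6 had a TPM of 0 in both libraries. Both animals were female, so the absence of these markers was fixed in advance and adds nothing about Rpl10l or Rpl39l.

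Of the pairs with a relative outside the 80 genes, most also had a low paralog. Rpl22l1 was 2.15-fold lower than Rpl22, with 53.0 and 57.3 TPM against 117 and 120 TPM (log2 −1.10 ± 0.05). Rpl7l1 was 15.9-fold lower than Rpl7, at 28.1 and 26.6 TPM (log2 −3.99 ± 0.03). Rps4l matches the symbol but has no coding transcript in the annotation, where it is a transcribed processed pseudogene, and it was 15.7-fold lower than Rps4x, at 24.1 and 24.7 TPM (log2 −3.97 ± 0.14). Rpl36al exceeded Rpl36a by RSEM, with 111.7 and 110.95 TPM against 75.2 and 77.4 TPM (log2 0.54 ± 0.04), but by kallisto it was lower (log2 −0.43 ± 0.03). The order of that pair is therefore not settled by these files.

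**Figure D2:**
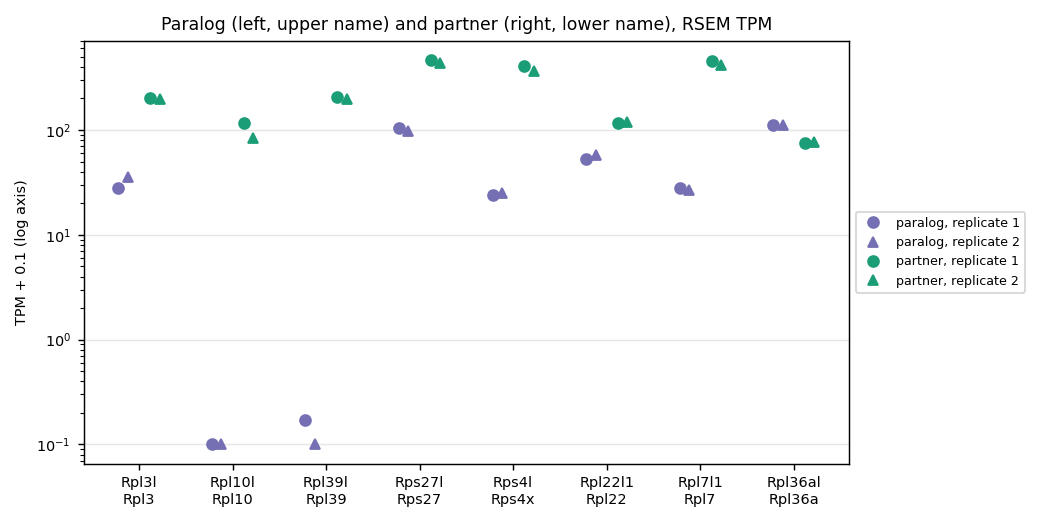
TPM + 0.1 (log axis) of each paralog (purple, left) and its partner (green, right) in replicate 1 (circles) and replicate 2 (triangles) by RSEM. The paralog lies below its partner in 7 of 8 pairs, and above it for Rpl36al over Rpl36a, whose order turns with kallisto.

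The 2 hearts differed little in these genes. Differences were tested gene by gene, replicate 2 over replicate 1, with a two-sided exact binomial test on rounded counts, Benjamini-Hochberg adjusted over 16517 genes. Such a test on reads compares these 2 libraries and not conditions. With a call set at 1.5-fold and an adjusted p under 0.05, 0 of 78 tested ribosomal protein genes were called, beside 2.74% of all genes tested. By kallisto counts 0 were called as well. At any fold, 21 of the 78 (26.9%) had an adjusted p under 0.05 by RSEM (22 by kallisto), beside 17.3% of all genes tested. Of these 21 genes, 10 were higher and 11 lower in replicate 2. An unadjusted p under 0.05 was found for 32 of the 78 (41.0%), beside 27.0% of all genes tested. Most of these differences were small. Over the 78 the absolute log2 ratio had a median of 0.054, against 0.10 over 13586 genes with a mean CPM (counts scaled to the library size) of at least 1. Within 1.2-fold lay 75 of the 78 (96.2%), against 83.6% of those genes. The median log2 ratio was −0.004 over the 78 and 0.006 over those genes. The comparison genes reach down to a mean CPM of 1 and were not matched to the 78 for abundance. The part of counting error in the narrower spread of the 78 was not tested.

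The 3 exceptions to the 1.2-fold range were Rpl10, Rpl3l and Rpl11. Rpl3l was 1.27-fold higher in replicate 2, with 1381 counts there and 1121 in replicate 1 (adjusted p = 9.83e-08 by the exact test), and kallisto gave the same size (log2 ratio 0.33, against 0.34 by RSEM). Rpl10 had a log2 ratio of −0.50 by RSEM (adjusted p = 1.06e-28, exact test) but −0.10 by kallisto. Rpl11 had 0.29 by RSEM (adjusted p = 9.76e-12, exact test) and 0.13 by kallisto. The next in size were Rps12 (log2 ratio 0.24, and 0.15 by kallisto) and Rpl30 (−0.17, and −0.11 by kallisto). In all, 14 genes had an adjusted p under 0.05 by both quantifications with the same sign, among them Rpl10, Rpl11, Rpl15, Rpl30, Rpl3l, Rpl41, Rplp1, Rplp2, Rps12, Rps19, Rps2, Rps4x and Rpsa. No share over all genes is given for this rule, so whether 14 is many for a set of this size cannot be read from it. With ERCC spike-in totals in place of TMM scaling, Rpl10 passed 1.5-fold and was the only call, on a scale that moved the median of all genes to −0.10.

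**Figure D3:**
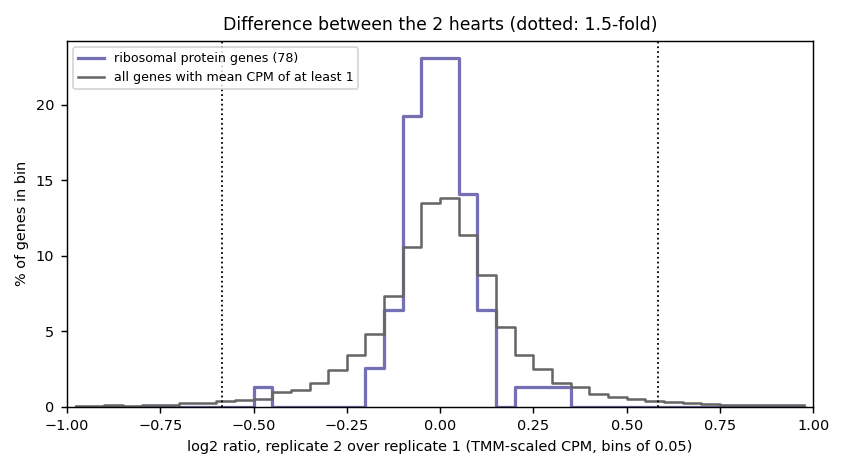
Distribution of the log2 ratio of replicate 2 over replicate 1 for 78 ribosomal protein genes (purple) and 13586 genes with a mean CPM of at least 1 (grey), as the percent of genes per bin of 0.05. The purple curve is narrower, with Rpl10 alone below −0.45 and no ribosomal protein gene past the dotted lines at 1.5-fold. The grey genes were not matched to the purple ones for abundance.

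Markers of blood and fat differed between the same libraries. All 7 red cell markers were called higher in replicate 2, and their sum was 12990 TPM there and 5271 TPM in replicate 1. All 5 fat cell markers were called lower in replicate 2, with sums of 10.1 TPM in replicate 2 and 64.5 TPM in replicate 1. Their part in the differences of Rpl3l or of other ribosomal protein genes was not tested.

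Lists of genes that make and control ribosomes had lower median levels than the ribosomal protein genes. In a list of 38 ribosome assembly factors all were detected, with a median level of 11.5 ± 0.173 TPM (SD, n = 2) and log2 ratios around a median of −0.06, and 0 were called at 1.5-fold, beside 2.74% of all genes tested. It includes the nucleolar proteins Ncl (65.7 ± 3.34 TPM) and Fbl (19.2 ± 0.431 TPM) and Eif6, which keeps new large subunits from joining early (31.3 ± 1.03 TPM). In 20 genes of ribosomal RNA transcription and growth control all were detected, the median level was 17.6 ± 0.778 TPM, and the median log2 ratio was −0.06 with 0 genes called. In lists of this size 0 calls is near that share of all genes. The RNA polymerase I factor Ubtf stood at 31.1 ± 0.622, Mtor at 23.8 ± 0.311, Larp1 at 23.8 ± 1.25 and Myc at 2.85 ± 0.0707 TPM.

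Other mRNAs that start with a TOP element had levels closer to those of ribosomal proteins. All 20 on the list were detected, at a list median of 148 ± 1.54 TPM and a median log2 ratio of 0.01, and 0 were called, near the 2.74% of all genes tested. The elongation factors Eef1a1 and Eef2 stood at 1458 ± 77.2 and 561 ± 3.20 TPM, and the translationally controlled protein Tpt1 at 1271 ± 36.7 TPM. The 78 mitochondrial ribosomal proteins, which build the ribosome inside mitochondria, were all detected. Their median was lower, at 33.3 ± 2.22 TPM, their median log2 ratio was 0.09, and there was 1 call, Mrpl23, lower in replicate 2 (log2 −1.48), beside the same 2.74%.

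The values of single genes depended on the quantification. RSEM and kallisto are different ways to divide reads that fit several transcripts, and their names are taken from the column headers. In 56 of the 80 genes over 50% of the 31-base words of the leading coding transcript also occurred in another gene, with a median of 64.0%, and 71 had at least 1 pseudogene that shared 100 words or more. Rps27 had the highest share at 98.7%, and Rpl7a had the most such pseudogenes at 63. By counts relative to the library total, 15 of 78 genes were over 2-fold apart between kallisto and RSEM, beside 3.81% of all genes with a mean CPM of at least 1.

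For 10 of these 15 genes kallisto gave the higher value, and the sums with the copies were close. Rpl27 had 3129 and 3044 counts by kallisto and 482 and 455 by RSEM, a 6.55-fold difference. RSEM gave 1288 and 1260 counts each to the pseudogenes Rpl27-ps3 and Gm11518, and kallisto gave them 0. For Rps23, which was 4.10-fold higher by kallisto, Rps23-ps1 had 0 counts in both libraries by kallisto after rounding and 3889 and 3765 by RSEM. For Rpl10 (3.28-fold), Rpl10-ps3 had 0 by kallisto and 4972 and 4942 by RSEM. For Rpl28 (2.66-fold), Rpl28-ps1 had 0 by kallisto and 3413 and 3395 by RSEM. For Rpl27a (2.73-fold), Gm7536 had 687 and 697 counts by kallisto and 2345 and 2288 by RSEM. For Rpl5 (2.69-fold), the transcribed pseudogene Gm15500 had 5905 and 5558 counts by kallisto and 7897 and 7207 by RSEM. Rpl21, Rpl12, Rpl36a and Rpl37 were the others, at 2.04- to 2.70-fold. When counts were summed with the entries sharing at least 100 words, the kallisto over RSEM fold of these 10 ran from 0.934 to 1.06, with a median of 1.02.

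For the other 5 genes kallisto gave the lower value, and the sum with the copies did not remove the gap. Rpl36 had 481 and 574 counts by kallisto and 3093 and 3212 by RSEM (0.166-fold). Rpl19 was at 0.212-fold, with 2553 and 2455 kallisto counts in the pseudogene Rpl19-ps11. Rps21 (0.320-fold) had 701 and 712 counts by kallisto and 2231 and 2162 by RSEM, and shared 100 words with no other entry. Rplp1 and Rps29 were at 0.345- and 0.450-fold. The summed fold of these 5 stayed between 0.219 and 0.605.

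**Figure D4:**
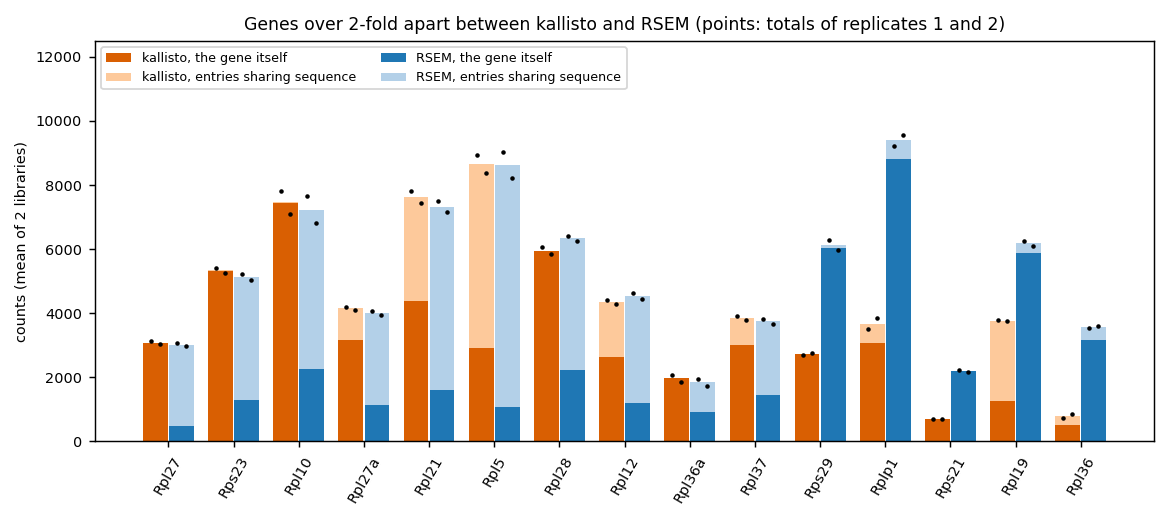
Counts (mean of 2 libraries) of the 15 genes over 2-fold apart, with kallisto bars (orange) left of RSEM bars (blue), dark for the gene itself and light for the entries that share at least 100 words of 31 bases, and points for the totals of each library. In the first 10 genes the totals lie within 0.934 to 1.06 of each other while the split differs, and in the last 5, from Rps29 to Rpl36, the kallisto totals are lower.

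The same summing was applied to the differences between the hearts. After it the log2 ratio of Rpl10 was −0.13, that of Rpl11 0.08 and that of Rps12 0.01, while that of Rpl3l, which has no such copy, stayed at 0.34. Rpl3l was then the only one of 78 outside 1.2-fold, the other 77 lying within it. The copies of Rps4x differed the other way. The entries sharing sequence with it, mainly Gm9616, Gm13680 and Rps4x-ps, had 1878 counts in replicate 2 and 1113 in replicate 1 by RSEM, and the summed log2 ratio was −0.04, against −0.16 for Rps4x alone.

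Many reads of these genes were assigned to transcripts that are not annotated as coding. The 80 genes have 484 annotated transcripts, of which 226 are coding, 172 retain an intron, 62 are processed transcripts with no annotated reading frame and 24 are targets of nonsense-mediated decay. By kallisto, the types other than coding held 25.7% and 25.01% of the genes' counts in replicates 1 and 2, against 5.92% and 5.83% over all genes with a coding transcript. By RSEM they held 15.5% and 14.7%, against 5.59% and 5.33%. Retained introns were the largest such class, with 13.5% and 12.7% by kallisto and 6.75% and 6.33% by RSEM.

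Single genes were dominated by such transcripts, though often by 1 method alone. Over 50% of counts lay in them in both libraries for 21 genes by kallisto and 11 by RSEM. Only 7 genes were common to these groups, Rpl23, Rpl35, Rpl37, Rps16, Rps18, Rps20 and Rps23. No share over all genes is given for the 50% rule, so these counts cannot be read as a trait of the set. Among the highest RSEM shares were those of Rps16 (97.0% and 96.0%), Rps26 (96.9% and 96.5%), Rpl35 (95.1% and 94.9%), Rps18 (88.0% and 87.0%), Rps20 (87.7% and 85.8%), Rpl37 (82.3% and 82.8%) and Rpl24 (79.6% and 76.3%). For Rpl24 the kallisto shares were 11.1% and 10.5%. For Rps20 both methods chose retained introns: Rps20-201 held 1707 and 1577 counts by kallisto and 2335 and 2142 by RSEM. For the relative Rps27l, kallisto gave 0 counts to its coding transcript Rps27l-201 and 1175 and 996 to the processed transcript Rps27l-204, while RSEM gave Rps27l-201 1226 and 1083 and Rps27l-204 83.0 and 108.

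**Figure D5:**
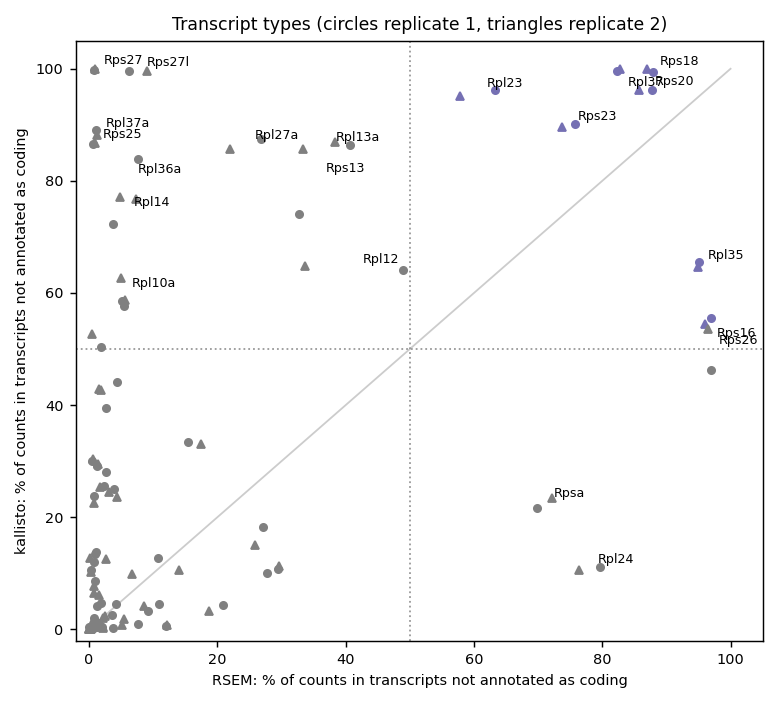
Percent of a gene's counts in transcripts not annotated as coding, for those of the 77 plotted genes that have such counts, by RSEM (x axis) and kallisto (y axis), with circles for replicate 1 and triangles for replicate 2, dotted lines at 50% and purple for the 7 genes over 50% by both. Points near the upper left and lower right corners are genes for which the methods chose different transcripts.

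A short run of pyrimidines lay near the start of many of the genes, shown here because TOP elements lie at the start. RefSeq start regions on GRCm38.p6 matched 60 of the 80 genes, and 50 bases on each side of the start were searched. The letters CTTTC on the sense strand were found in 32 of 60 (53.3%), against 13.2% of 16522 protein-coding genes. Within 15 bases of a start they were found in 17 of 60, and no share over all genes was computed for that narrower window. The letters CTTCCG on either strand, a core that ETS factors such as GABP can bind, were found in 23 of 60 (38.3%), against 13.9%. They can overlap CTTTC by a single base, and 10 of the 60 genes held both while 15 held neither. TATAAA on the sense strand of the upstream 50 bases was found in 0 of 60, against 3.69%. A match is a description of the letters only, and no match says only that these letters are not in that window.

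The 30-base stretches below place CTTTC (capitals) at or next to the annotated start of 6 genes, with Rpl3l, whose windows held neither CTTTC nor CTTCCG, as the contrast. They run 5′ to 3′ on the strand of the gene, from chr7:141447639-141447668 (Rplp2, plus), chr11:114668568-114668597 (Rpl38, plus), chr3:90213630-90213659 (Rps27, minus), chr17:27635223-27635252 (Rps10, minus), chr7:4792955-4792984 (Rpl28, plus), chr2:39005112-39005141 (Rpl35, minus) and chr17:24727816-24727845 (Rpl3l, plus).
Rplp2: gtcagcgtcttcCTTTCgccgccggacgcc
Rpl38: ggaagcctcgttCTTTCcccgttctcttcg
Rps27: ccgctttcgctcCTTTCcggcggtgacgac
Rps10: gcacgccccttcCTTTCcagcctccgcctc
Rpl28: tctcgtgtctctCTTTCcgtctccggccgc
Rpl35: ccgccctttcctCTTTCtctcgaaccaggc
Rpl3l: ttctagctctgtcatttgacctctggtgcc
In Rplp2 and Rpl38 the C of CTTTC is the first base after the annotated start, and in the other 4 it is base 2, 3 or 5 after it.

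The genes are spread over the genome, and many host small RNAs that act on ribosomes. They lie on 19 of 21 chromosomes, with 14 on chromosome 7 and 4 on the X chromosome. Of the 80 genes, 29 contain a gene for a small nucleolar RNA, a guide for the chemical modification of ribosomal RNA, against 259 of 22028 protein-coding genes. They hold 56 of 1507 such genes, with 5 in Rpl4 and 4 in Rpl13a.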

How the data were processed

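Total RNA of heart tissue was sequenced from 2 mice, 1 library each, with 40403041 and 39849597 expected counts in replicates 1 and 2. The authors made gene and transcript tables on mm10 with GENCODE M21, per the text deposited with the samples. Per the file headers, the deposited tables hold expected counts (reads that fit several entries are shared), TPM scaled over all entries, the percent of a gene's TPM in each transcript, and the posterior SD of each count. A second deposited transcript table holds estimated counts and TPM. The headers are those of RSEM and kallisto, and their versions, not given in sources used here, are unknown. Effective length is 99 nt below length in the RSEM tables, so TPM of short genes differ between the tables. Entries with numeric identifiers (3.84 and 2.92 counts, 9.50e-06% and 7.33e-06% of the total) and spike-ins were left out of library sizes.

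Counts were rounded and scaled by TMM (edgeR 4.0.16, R 4.3.3). Genes whose counts summed to 20 or more were tested between the libraries with a two-sided exact conditional binomial test (scipy 1.17.1) and Benjamini-Hochberg adjustment, and called at an adjusted p under 0.05 and 1.5-fold. The edgeR quasi-likelihood test has no contrast with 1 group and could not be fitted. The test was checked on simulated data. The labels do not say whether the animals were littermates, so p-values measure only the spread between reads of these libraries. Paralog ratios used log2(TPM + 0.1), with SD over 2 libraries. CPM ratios used a prior count of 0.5. Shared sequence was counted as 31-base words of a gene's coding transcripts found in the sense orientation of any transcript of another gene, and its percent over the leading coding transcript. Alternatives were kallisto values, other scalings (DESeq2 1.42.0 size factors, ERCC totals), counts not divided by length, other denominators, pseudocounts, filters, fold limits and leaving out each library. Coding sequences were aligned with Biopython 1.88.

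Genes named are all pairs, the stalk and 5S genes, Rack1 and Fau, the 8 highest and 8 lowest by TPM, the 5 most different between libraries, those over 2-fold apart between methods, the 8 with the largest share in transcripts not annotated as coding, and those next to 1 TPM. Other members are named for their role, and a few genes of these groups are not reported here. The members and lists were chosen with earlier results of these data known. Protein sequences were not used here.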

Additional observations from a re-analysis of the deposited data

How the results depend on the processing

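With 2 animals in 1 group, no SD here rests on more than 2 values. No paired analysis was possible because the labels form 1 group with no second group to pair it with. Of 69 repeats under another setting, 59 were counted as the same. The rule was a paralog ratio on the same side of 0, another value within 1 SD or a count within 1.5-fold. Leaving out 1 of 2 libraries always moves a mean by less than 1 SD, so such repeats could not fail. The median log2 ratio between libraries has no SD, and its repeats were also counted as the same. With ERCC totals it was −0.11 in place of −0.004, and −0.10 over all genes. With counts not divided by length, the log2 ratio of Rpl7l1 to Rpl7 was −2.66 in place of −3.99, that of Rps27l to Rps27 −1.45 in place of −2.16 and that of Rpl22l1 to Rpl22 −1.79 in place of −1.10. By kallisto, the share of library counts was 0.929%, the median level 404 TPM, the share in transcripts not annotated as coding 25.4% and the log2 ratio of the large to the small subunit −0.039. The log2 ratio of Rpl36al to Rpl36a turned to −0.43. With nuclear protein-coding genes as the denominator the share was 1.31% and with TPM over protein-coding genes only the median was 505.5 TPM. Calls between the libraries numbered 1 with ERCC totals and 3 at 1.2-fold, and 23 genes were over 2-fold apart between kallisto and RSEM by TPM in place of counts. The causes were not tested. Leaving out 1 replicate kept the share between 0.872% and 0.883% and the median between 261 and 273 TPM. Summing counts with the entries sharing sequence, an alternative chosen after seeing the data, gave a median log2 ratio of −0.006. Depth limits Rpl10l and Rpl39l, for which these libraries give at most 1 count.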
